A study of Mus musculus with 26 samples.

Results

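The interferon regulatory factors are transcription factors that share a DNA-binding domain with a row of tryptophans. The family was represented here by Irf1, Irf2, Irf3, Irf4, Irf5, Irf7, Irf8 and Irf9, 8 of the 54146 genes in the count files, found by matching their mouse symbols to the files' Ensembl identifiers. The 6 poly(A) RNA-seq libraries came from mouse lin- bone marrow cells, a progenitor-enriched fraction, that had been infected with the leukaemia fusion gene MLL-AF9 (MA9). In 3 libraries, MA9+SETDB1, the cells also received SETDB1, which encodes a histone H3 lysine 9 methyltransferase. In the other 3, MA9+EV, they received the empty MSCVpuro vector. Both arms therefore carried MLL-AF9, were selected with puromycin for 3 to 6 weeks in medium with IL-3 and SCF, and were grown for 8 to 12 weeks. The labels number the libraries of an arm as replicates but do not say whether they came from separate mice, infections or cultures, so a p-value here reflects only how these libraries spread, which may be technical. The labels state neither the species of the SETDB1 coding sequence nor the promoter that drove it.

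IRF1 and IRF2 bind the same DNA element, IRF1 as an activator induced by interferon gamma and IRF2 mostly as its repressor. IRF3, IRF5 and IRF7 wait in the cytoplasm until kinases downstream of nucleic acid sensors and Toll-like receptors phosphorylate them, and then drive interferon genes. IRF9 joins STAT2 in the ISGF3 complex, which carries the signal of type I interferon to its target genes. IRF4 and IRF8 bind DNA weakly alone and act with partners such as PU.1 and BATF-JUN dimers. In the bone marrow, IRF8 is known for directing progenitors to monocytes and dendritic cells and away from neutrophils, and its loss in mice gives a disease like chronic myeloid leukaemia.

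Promoter sequence is shown for 4 members: the 3 called lower in MA9+SETDB1 cells (Irf8, Irf1 and Irf2), and Irf9, which showed the largest fitted increase among the members tested. Each is RefSeq sequence on GRCm38.p6, plus strand, from 250 bases before to 50 bases after the first annotated start. The windows lie at chr8:120736108-120736407 (Irf8), chr11:53769764-53770063 (Irf1), chr8:46739495-46739794 (Irf2) and chr14:55603735-55604034 (Irf9). Capitals mark matches to the gamma-activated site TTCNNNGAA in Irf8, Irf1 and Irf2, the overlapping ETS-IRF composite element (GGAA and GAAA with 2 bases of any kind between them) and interferon-stimulated response element core (GAAA and GAAA, 2 bases apart) at the left end of Irf2, and a GATA site in Irf9.
Irf8: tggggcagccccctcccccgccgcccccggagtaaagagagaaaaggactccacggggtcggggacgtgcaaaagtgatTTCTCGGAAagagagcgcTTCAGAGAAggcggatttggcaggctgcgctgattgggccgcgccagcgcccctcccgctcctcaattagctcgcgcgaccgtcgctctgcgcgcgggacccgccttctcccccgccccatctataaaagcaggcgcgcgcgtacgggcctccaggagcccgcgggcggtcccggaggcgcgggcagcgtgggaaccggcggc
Irf1: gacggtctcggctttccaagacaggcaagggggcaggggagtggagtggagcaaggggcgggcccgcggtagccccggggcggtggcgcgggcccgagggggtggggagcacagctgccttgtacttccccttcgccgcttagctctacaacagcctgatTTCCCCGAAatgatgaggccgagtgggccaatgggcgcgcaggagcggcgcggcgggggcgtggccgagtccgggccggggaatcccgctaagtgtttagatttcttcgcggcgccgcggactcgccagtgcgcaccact
Irf2: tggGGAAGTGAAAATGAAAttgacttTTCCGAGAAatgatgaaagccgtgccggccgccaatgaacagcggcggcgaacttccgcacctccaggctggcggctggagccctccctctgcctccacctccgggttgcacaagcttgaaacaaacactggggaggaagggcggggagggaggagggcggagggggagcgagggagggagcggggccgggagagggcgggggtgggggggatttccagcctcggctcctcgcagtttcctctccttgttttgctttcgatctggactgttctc
Irf9: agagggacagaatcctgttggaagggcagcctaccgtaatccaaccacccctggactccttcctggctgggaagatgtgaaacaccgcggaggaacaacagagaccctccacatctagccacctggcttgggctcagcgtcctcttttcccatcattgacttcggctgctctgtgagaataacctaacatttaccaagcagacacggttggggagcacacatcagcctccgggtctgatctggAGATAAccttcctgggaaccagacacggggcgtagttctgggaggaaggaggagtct

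Setdb1 itself gave the check of the labels. Its level was 475, 605 and 607 CPM (counts per 1e+06 counts, scaled by edgeR's TMM factors) in MA9+SETDB1 libraries 1 to 3, against 105, 108 and 109 CPM in MA9+EV libraries 1 to 3, and the arms did not overlap (log2 fold change 2.39, SE 0.135, edgeR quasi-likelihood test with Benjamini-Hochberg adjustment, adjusted p = 2.42e-05). Gene counts summed to between 18070482 and 22561757 per library, so that 3 counts, the limit that a count of 0 allows, corresponded to 0.124 to 0.183 CPM. These limits and the intervals on counts below cover counting error only. Replicates 2 and 3 of each arm were far closer to each other than to replicate 1 (chi-square per degree of freedom of 3.19 and 4.38, against 80.5 to 105 for the other pairs within an arm), but they differed by more than sampling noise and were counted as separate samples. Differences between the arms were wide: 6951 of 12986 genes tested were called at an adjusted p under 0.05, 53.5% of them, with 27.4% called higher and 26.2% called lower in MA9+SETDB1 cells.

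Irf8, Irf1 and Irf2 were lower in MA9+SETDB1 than in MA9+EV cells, and Irf9, Irf5 and Irf3 were higher. Irf8 was close to the detection limit in MA9+SETDB1 cells, Irf1 was lower by 3.97-fold, and Irf9 was higher by 3.06-fold. Of the 8 members, 7 passed the filter on low counts and 6 of these were called, 3 in each direction, beside the 53.5% called over all genes tested. The values of the arms did not overlap for 6 members, beside 64.6% of all genes tested. Since more than 1 in 2 tested genes was called, the number of members called says little by itself, and the levels and directions of single members are given instead. The summed level of the 8 members was 177 to 184 CPM in MA9+SETDB1 libraries and 154 to 164 CPM in MA9+EV libraries. In bulk RNA, fewer cells that express a gene and less of its RNA per cell cannot be told apart, here and in all results that follow.

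**Figure D1:**
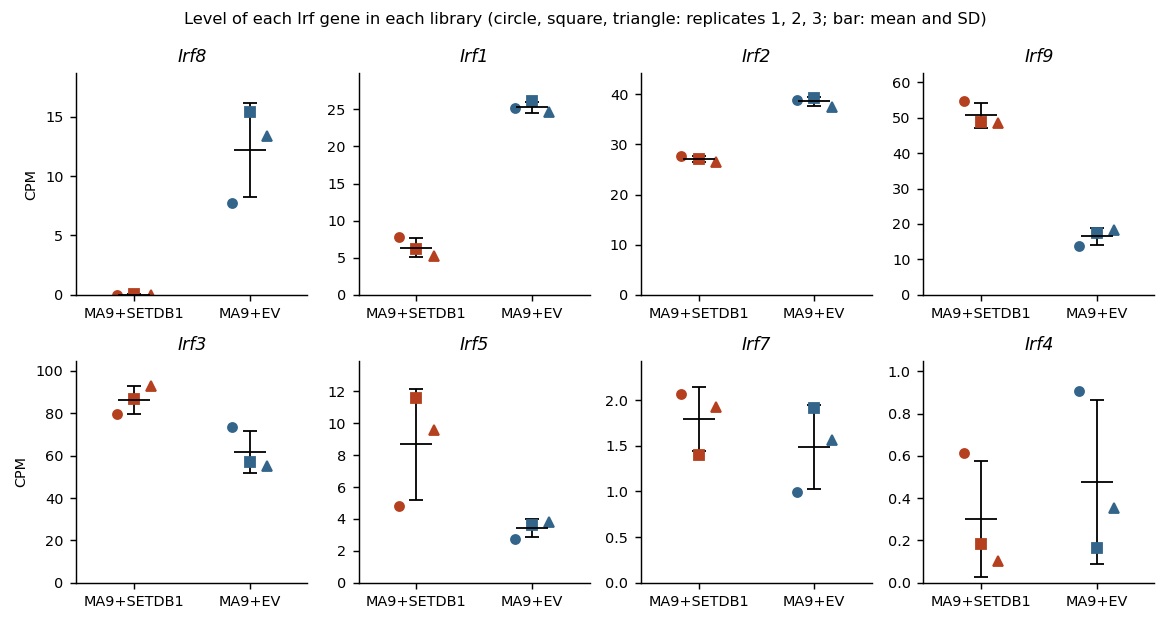
Level of each of the 8 Irf genes in every library (CPM, linear axes that start at 0 and differ between panels), with circles, squares and triangles for replicates 1, 2 and 3 and bars for the mean and SD. Irf8 lies at 0 to 0.0609 CPM in MA9+SETDB1 libraries and at 7.76 to 15.4 CPM in MA9+EV libraries, while the arms overlap for Irf7 and Irf4.

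Irf8 (ENSMUSG00000041515.10, chr8:120736358-120756694 on GRCm38.p6) had the widest separation. It had 0, 1 and 0 counts in MA9+SETDB1 libraries 1 to 3, against 188, 370 and 267 counts in MA9+EV libraries 1 to 3. In CPM these were 0, 0.0609 and 0 in MA9+SETDB1 cells and 7.76, 15.4 and 13.4 in MA9+EV cells. All MA9+SETDB1 libraries were thus at or near the limit of detection, and every MA9+EV library was far above it. Summed over the arms, 1 count stood against 825, and the level was 648.1 times as high in MA9+EV cells, with a 95% counting interval of 116 to 25630. edgeR fitted a log2 fold change of -8.93 (adjusted p = 8.98e-05, SE 0.685), a value that depends on the prior count because MA9+SETDB1 cells were near 0. Among MA9+EV libraries, replicate 1 had the lowest level.

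Irf1 (ENSMUSG00000018899.16, chr11:53770014-53778374) was measured at 7.78, 6.15 and 5.19 CPM in MA9+SETDB1 libraries 1 to 3, against 25.2, 26.1 and 24.6 CPM in MA9+EV libraries 1 to 3. The means were 6.37 ± 1.31 and 25.3 ± 0.785 CPM (SD, n = 3 each), and the highest MA9+SETDB1 library stayed well under the lowest MA9+EV library. The log2 fold change was -1.99 (95% interval -2.44 to -1.53, edgeR adjusted p = 0.000225). Irf2 (ENSMUSG00000031627.9, chr8:46739745-46847458), which encodes the factor that competes with IRF1 for its sites, moved in the same direction by less. It was at 27.7, 27.1 and 26.5 CPM in MA9+SETDB1 libraries 1 to 3, against 38.9, 39.3 and 37.5 CPM in MA9+EV libraries 1 to 3. The spread within each arm was narrow, 0.602 and 0.963 CPM (SD), and the log2 fold change was -0.51 (95% interval -0.75 to -0.27, edgeR adjusted p = 0.005). With replicates 2 and 3 of each arm summed to 1 library, the Irf2 change was of the same size but not called (log2 fold change -0.51, edgeR adjusted p = 0.113).

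The balance of this activator and repressor pair, taken as the ratio of their RNA counts within each library, differed between the arms. The log2 ratio of Irf1 to Irf2 counts was -1.83, -2.14 and -2.34 in MA9+SETDB1 libraries 1 to 3 and -0.628, -0.588 and -0.608 in MA9+EV libraries 1 to 3. The ratio was lower in 3 of 3 MA9+SETDB1 libraries than in any MA9+EV library, with a difference in means of -1.5. A two-sided exact permutation test gave p = 0.1, the smallest that 3 libraries against 3 allow, and 0.15 after adjustment over the 3 ratios compared, so this design could not take it past the threshold.

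Irf9 (ENSMUSG00000002325.15, chr14:55603985-55610030), the DNA-binding subunit of ISGF3, was higher in MA9+SETDB1 cells. It was at 54.8, 48.9 and 48.4 CPM in MA9+SETDB1 libraries 1 to 3, against 13.8, 17.5 and 18.3 CPM in MA9+EV libraries 1 to 3. The means were 50.7 ± 3.57 and 16.6 ± 2.4 CPM (SD, n = 3 each), with a gap between the arms several times either SD. The log2 fold change was 1.61 (95% interval 1.27 to 1.96, edgeR adjusted p = 0.000177).

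Stat2, its partner in that complex, moved less. It was at 50.2, 53.6 and 51.5 CPM in MA9+SETDB1 libraries 1 to 3, against 37, 43 and 39.8 CPM in MA9+EV libraries 1 to 3 (log2 fold change 0.37, SE 0.104, edgeR adjusted p = 0.0208). Stat2 was thus higher, without overlap of the arms, but the call was close to the threshold. It was lost without MA9+SETDB1 library 2 or 3 or MA9+EV library 3 (edgeR adjusted p between 0.0643 and 0.0844), and the log2 fold change was 0.14 with libraries scaled by total counts. Stat2 was chosen for its place beside IRF9 after its values were seen.

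Among the members that kinases activate, Irf3 (ENSMUSG00000003184.15, chr7:44997648-45002848) was at 79.5, 86.7 and 92.8 CPM in MA9+SETDB1 libraries 1 to 3, against 73.3, 56.9 and 54.9 CPM in MA9+EV libraries 1 to 3. The lowest MA9+SETDB1 library exceeded the highest MA9+EV library by a narrow margin. The means were 86.3 ± 6.64 and 61.7 ± 10.1 CPM (SD, n = 3 each), and the fit gave 0.48 on the log2 scale (95% interval 0.15 to 0.82, edgeR adjusted p = 0.0235). This call rested on single libraries: the edgeR adjusted p was 0.0694 without MA9+SETDB1 library 2, 0.0809 without MA9+SETDB1 library 3, 0.0922 without MA9+EV library 2 and 0.0915 without MA9+EV library 3. With libraries scaled by total counts alone, the log2 fold change was 0.25 (edgeR adjusted p = 0.144).

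Irf5 (ENSMUSG00000029771.12, chr6:29526130-29541869), which acts downstream of MYD88 in inflammatory cytokine induction, was at 4.81, 11.6 and 9.61 CPM in MA9+SETDB1 libraries 1 to 3, against 2.77, 3.65 and 3.83 CPM in MA9+EV libraries 1 to 3. Replicate 1 was the lowest library of each arm, and the arms did not overlap. The means were 8.66 ± 3.48 and 3.42 ± 0.569 CPM (SD, n = 3 each), a log2 fold change of 1.34 (95% interval 0.48 to 2.20, edgeR adjusted p = 0.0183). Without MA9+SETDB1 library 2 or 3, or MA9+EV library 1 or 2, the edgeR adjusted p lay between 0.0533 and 0.0703. Irf5 overlaps Tnpo3, a nuclear import receptor gene, in the annotation, and Tnpo3 was lower in MA9+SETDB1 cells (139.5 ± 4.94 against 201.1 ± 17.4 CPM, SD, n = 3 each, edgeR adjusted p = 0.00465). The sources used here do not give the strand setting of the counting, so how reads in the overlap were assigned is not known.

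Irf7 (ENSMUSG00000025498.15, chr7:141263183-141266499), known for amplifying type I interferon production, was not called. It was at 2.07, 1.4 and 1.92 CPM in MA9+SETDB1 libraries 1 to 3, against 0.991, 1.91 and 1.56 CPM in MA9+EV libraries 1 to 3, and the arms overlapped. The log2 fold change was 0.28 with a 95% interval of -0.55 to 1.1 (edgeR adjusted p = 0.534), which covers changes of about the size seen for Irf3 in either direction. The log2 ratio of Irf7 to Irf3 counts, the inducible against the constitutive kinase-activated member, was -5.24, -5.92 and -5.57 in MA9+SETDB1 libraries 1 to 3 and -6.18, -4.88 and -5.11 in MA9+EV libraries 1 to 3. These ratios overlapped (exact permutation p = 0.7, two-sided).

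Irf4 (ENSMUSG00000021356.10, chr13:30749233-30766981), the lymphoid and macrophage relative of Irf8, did not pass the filter. It had 11, 3 and 2 counts in MA9+SETDB1 libraries 1 to 3 and 22, 4 and 7 counts in MA9+EV libraries 1 to 3, with replicate 1 the highest of each arm and the arms overlapping. With no low-count filter its log2 fold change was -0.67 (edgeR adjusted p = 0.542; DESeq2 adjusted p = 0.649), so no difference was detectable at this depth. Because Irf8 was near 0 in MA9+SETDB1 cells, the log2 ratio of Irf4 to Irf8 counts was 4.52, 1.22 and 2.32 in MA9+SETDB1 libraries 1 to 3 and -3.07, -6.36 and -5.16 in MA9+EV libraries 1 to 3. The ratio was above 0 in every MA9+SETDB1 library and below 0 in every MA9+EV library. Its two-sided exact permutation test gave p = 0.1, the smallest possible, and 0.15 after adjustment over the 3 ratios compared. This design could not take it past the threshold. A pseudocount of 0.5 entered these ratios, and they rest on a few Irf4 counts per library.

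**Figure D2:**
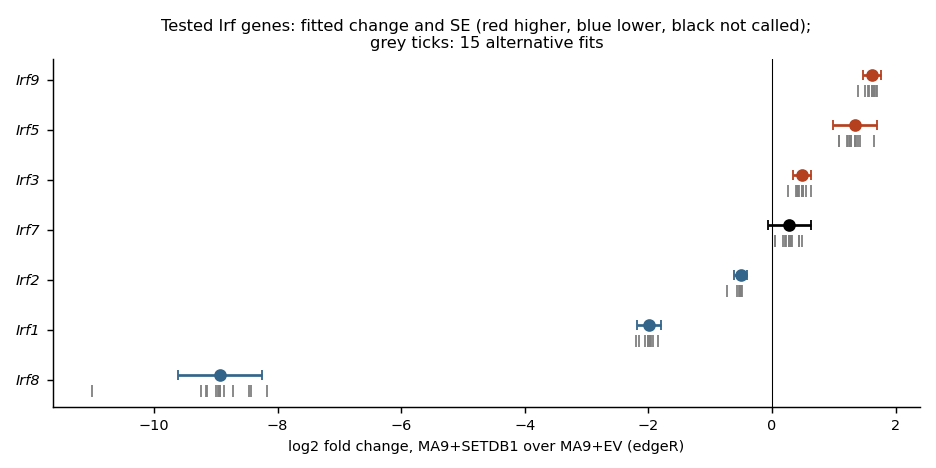
Fitted log2 fold change of MA9+SETDB1 over MA9+EV with its SE for the 7 Irf genes tested, in order of size, with 1 grey tick for each of 15 alternative fits below each gene. Irf9, Irf5 and Irf3 lie above 0 and Irf2, Irf1 and Irf8 below it in the fit and all alternatives, with Irf8 spread from -11 to -8.17 and Irf7 between 0.05 and 0.49 and never called.

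Upstream of the kinase-activated members, the 19 listed kinases and adaptors were all tested. In MA9+SETDB1 cells 3 were higher and 7 lower, 52.6% called, beside 53.5% of all genes. Under the replicate block 3 were higher and 10 lower. The median log2 fold change was -0.40 beside -0.01 over all genes tested. Tbkbp1, an adaptor of the kinase TBK1, was at 0.224, 0.183 and 0.416 CPM in MA9+SETDB1 libraries 1 to 3, against 110, 76.7 and 80.7 CPM in MA9+EV libraries 1 to 3 (log2 fold change -8.29, edgeR adjusted p = 4.73e-06). It was nearly undetected in the first arm and abundant in the second. Ticam2, the TRAM adaptor that links TLR4 to TRIF, had 1 count summed over MA9+SETDB1 libraries and 519 over MA9+EV libraries, a level 407.7 times as high in MA9+EV cells (95% counting interval 72.9 to 16140). Ifih1, the RNA sensor MDA5, averaged 11.3 ± 1.39 CPM in MA9+SETDB1 cells and 38.3 ± 5.54 CPM in MA9+EV cells (SD, n = 3 each, edgeR adjusted p = 0.000229). Tmem173, the adaptor STING, averaged 63.4 ± 9.83 CPM in MA9+SETDB1 cells and 107.3 ± 4.56 CPM in MA9+EV cells (SD, n = 3 each, edgeR adjusted p = 0.00264). The 3 genes called higher, named after their values were seen, were Mavs, Traf6 and Irak2. Mavs, the adaptor that MDA5 signals through, averaged 72.6 ± 23.3 CPM in MA9+SETDB1 cells and 33.3 ± 6.7 CPM in MA9+EV cells (SD, n = 3 each, edgeR adjusted p = 0.00942). Traf6 and Irak2, of the Toll-like receptor route, were higher by 0.55 and 0.61 on the log2 scale (edgeR adjusted p = 0.00347 and 0.00552). Both calls were lost with replicates 2 and 3 of each arm summed (edgeR adjusted p = 0.0602 and 0.0999). That of Traf6 was also lost with libraries scaled by total counts (edgeR adjusted p = 0.0677). Sensor and adaptor genes of 1 route, Ifih1 and Mavs, thus went opposite ways. The kinase TBK1 itself, named after its values were seen, was not called (Tbk1, 68.4 ± 5.58 against 75.7 ± 2.17 CPM, SD, n = 3 each; log2 fold change -0.15, 95% interval -0.38 to 0.09). Without MA9+EV library 1, 5 genes in place of 3 were called higher, and with libraries scaled by total counts 11 in place of 7 were called lower.

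The listed interferon genes themselves gave almost no counted reads. Reads that did not align uniquely, 18.4 to 20.2% of each library's reads, were not counted, so reads shared between similar genes would be missed. None of the 10 listed ligands was tested; 8 had no count in any MA9+SETDB1 library and all 10 had none in any MA9+EV library, and the only reads were 1 count each of Ifnb1 and Ifne in MA9+SETDB1 cells. Their summed level was 0 to 0.0609 CPM in MA9+SETDB1 libraries and 0 in MA9+EV libraries, at or under the limit that a count of 0 allows.

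On the receptor side, 11 of 12 listed receptor chains, Janus kinases and STATs were tested. In MA9+SETDB1 cells 2 were higher and 6 lower, 72.7% called beside 53.5% of all genes tested (median log2 fold change -0.62). Jak2, the kinase of the interferon gamma and many haematopoietic cytokine receptors, was at 419, 472 and 439 CPM in MA9+SETDB1 libraries 1 to 3, against 58.9, 47 and 44.3 CPM in MA9+EV libraries 1 to 3 (log2 fold change 3.15, edgeR adjusted p = 1.17e-05). It stood opposite to the receptor chains. Ifngr1, the ligand-binding chain of the interferon gamma receptor, averaged 134.6 ± 12.7 CPM in MA9+SETDB1 cells and 660.9 ± 113 CPM in MA9+EV cells (SD, n = 3 each, edgeR adjusted p = 7.35e-05). Ifnar2, a chain of the type I interferon receptor, averaged 35.2 ± 3.62 CPM in MA9+SETDB1 cells and 73.7 ± 9.04 CPM in MA9+EV cells (SD, n = 3 each, edgeR adjusted p = 0.000758). Il10rb, shared by the receptors of interleukin 10 and interferon lambda, was lower too (log2 fold change -1.01, edgeR adjusted p = 0.000355). Stat2 was the other gene called higher, and it lost its call, leaving 1, without MA9+SETDB1 library 2 or 3 or MA9+EV library 3.

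Of 14 tested feedback inhibitors, from a list of 16, 4 were higher and 6 lower in MA9+SETDB1 cells (median log2 fold change -0.21). The share called was 71.4%, beside 53.5% of all genes tested. Socs1, an inhibitor of Janus kinases and itself an IRF1 target, was at 59.7, 99 and 98 CPM in MA9+SETDB1 libraries 1 to 3, against 3.43, 5.64 and 6.65 CPM in MA9+EV libraries 1 to 3 (log2 fold change 4.03, SE 0.322, edgeR adjusted p = 0.000105). Pias3, an inhibitor of STAT3, was higher by a smaller amount (log2 fold change 1.44, edgeR adjusted p = 0.000395). Nlrx1, a mitochondrial NOD-like receptor that dampens MAVS signalling, averaged 9.69 ± 0.553 CPM in MA9+SETDB1 cells and 58.0 ± 13.8 CPM in MA9+EV cells (SD, n = 3 each, edgeR adjusted p = 8.16e-05). Ptpn11, the phosphatase SHP2, averaged 103.7 ± 5.59 CPM in MA9+SETDB1 cells and 196.5 ± 6.29 CPM in MA9+EV cells (SD, n = 3 each, edgeR adjusted p = 0.00027). The list thus held genes that moved far in both directions.

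**Figure D3:**
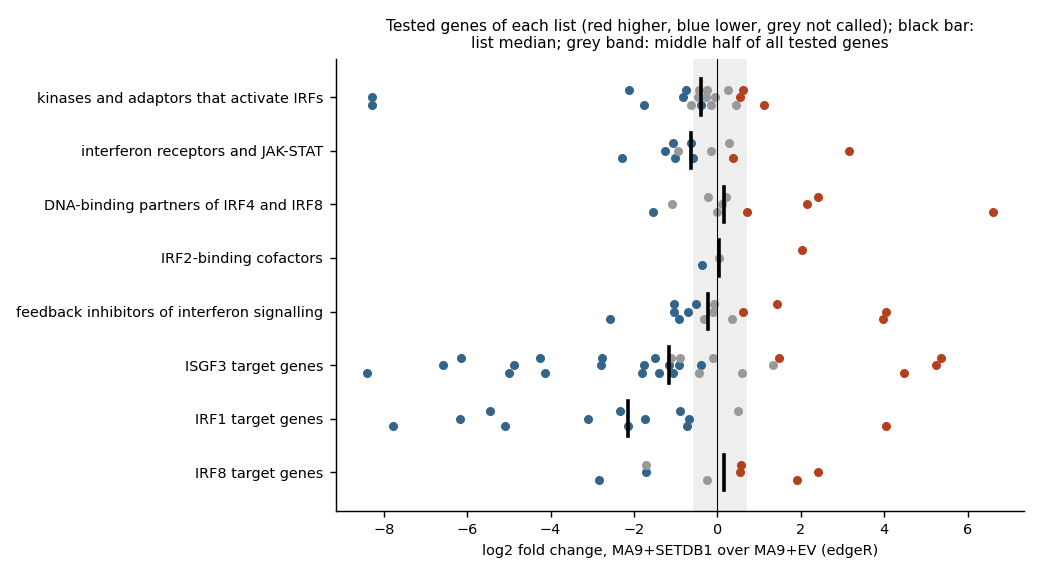
Log2 fold change of MA9+SETDB1 over MA9+EV for each tested gene of 8 lists around the Irf family, with a black bar at each list's median and a grey band from -0.56 to 0.69, the quartiles of all genes tested. The medians of the ISGF3 and IRF1 target lists, -1.17 and -2.14, lie well left of the band and that of the receptors and JAK-STAT genes, -0.62, just left of it, while those of the IRF8 targets and of the partners of IRF4 and IRF8 lie inside it.

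Genes known as ISGF3 targets, those that the complex switches on after type I interferon, were mostly lower in MA9+SETDB1 cells. Of 27 tested among 38 listed, 17 were lower and 4 higher, with a median log2 fold change of -1.17. The share called was 77.8%, beside 53.5% of all genes tested (26.2% lower and 27.4% higher). Trim30a, an inhibitor of Toll-like receptor signalling, was at 0.224, 0.243 and 0.416 CPM in MA9+SETDB1 libraries 1 to 3, against 23.2, 30.8 and 32.9 CPM in MA9+EV libraries 1 to 3 (log2 fold change -6.58, edgeR adjusted p = 1.15e-05). Samd9l, a growth-restraining gene mutated in familial myeloid disease in humans, averaged 1.71 ± 0.231 CPM in MA9+SETDB1 cells and 54.7 ± 12.5 CPM in MA9+EV cells (SD, n = 3 each, edgeR adjusted p = 1.2e-05). Both had arms many-fold apart. Cmpk2, a mitochondrial nucleotide kinase, had 2 counts summed over MA9+SETDB1 libraries and 1005 over MA9+EV libraries, a level 394.8 times as high in MA9+EV cells (95% counting interval 109 to 3264). Ifit2, an antiviral RNA-binding protein, averaged 0.881 ± 0.0903 CPM in MA9+SETDB1 cells and 16.95 ± 4.51 CPM in MA9+EV cells (SD, n = 3 each, edgeR adjusted p = 5.02e-05).

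The 4 ISGF3 targets called higher, named after their values were seen, were Oas3, Oasl2, Isg15 and Ifi35. Oas3, a sensor of double-stranded RNA, was at 56.2, 65.4 and 68.2 CPM in MA9+SETDB1 libraries 1 to 3, against 0.785, 1.58 and 2.32 CPM in MA9+EV libraries 1 to 3 (log2 fold change 5.36, edgeR adjusted p = 5.02e-05). Isg15, a ubiquitin-like modifier, was at 8.39, 25.4 and 27.5 CPM in MA9+SETDB1 libraries 1 to 3, against 0.537, 1.2 and 1.01 CPM in MA9+EV libraries 1 to 3. Every MA9+SETDB1 library exceeded every MA9+EV library in both genes. The list therefore moved in both directions while Irf9 itself was higher.

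Genes known as IRF1 targets were lower in nearly every case. Of 13 tested among 16 listed, 11 were lower and 1 higher in MA9+SETDB1 cells (92.3% called, beside 53.5% of all genes tested). The median log2 fold change of these targets was -2.14. Their summed level was 233 to 299 CPM in MA9+SETDB1 libraries and 455 to 700 CPM in MA9+EV libraries. The members with the smallest p-values that fell were Il15, a cytokine of natural killer and memory T cells, and the immunoproteasome subunits Psmb9 and Psmb8. Il15 averaged 0.0765 ± 0.0392 CPM in MA9+SETDB1 cells and 3.56 ± 0.718 CPM in MA9+EV cells (SD, n = 3 each, edgeR adjusted p = 0.00011). Psmb9 was at 3.13, 3.41 and 4.05 CPM in MA9+SETDB1 libraries 1 to 3, against 20.3, 37.1 and 33.7 CPM in MA9+EV libraries 1 to 3 (log2 fold change -3.10, edgeR adjusted p = 0.00017). Psmb8 was at 19.9, 22.8 and 25.3 CPM in MA9+SETDB1 libraries 1 to 3, against 75.4, 138 and 130 CPM in MA9+EV libraries 1 to 3 (log2 fold change -2.33, edgeR adjusted p = 0.00034). The arms were apart in all these genes. The single member called higher was Socs1, given above with the feedback inhibitors, and the gene not called was Gbp2 (log2 fold change 0.50, edgeR adjusted p = 0.629).

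**Figure D4:**
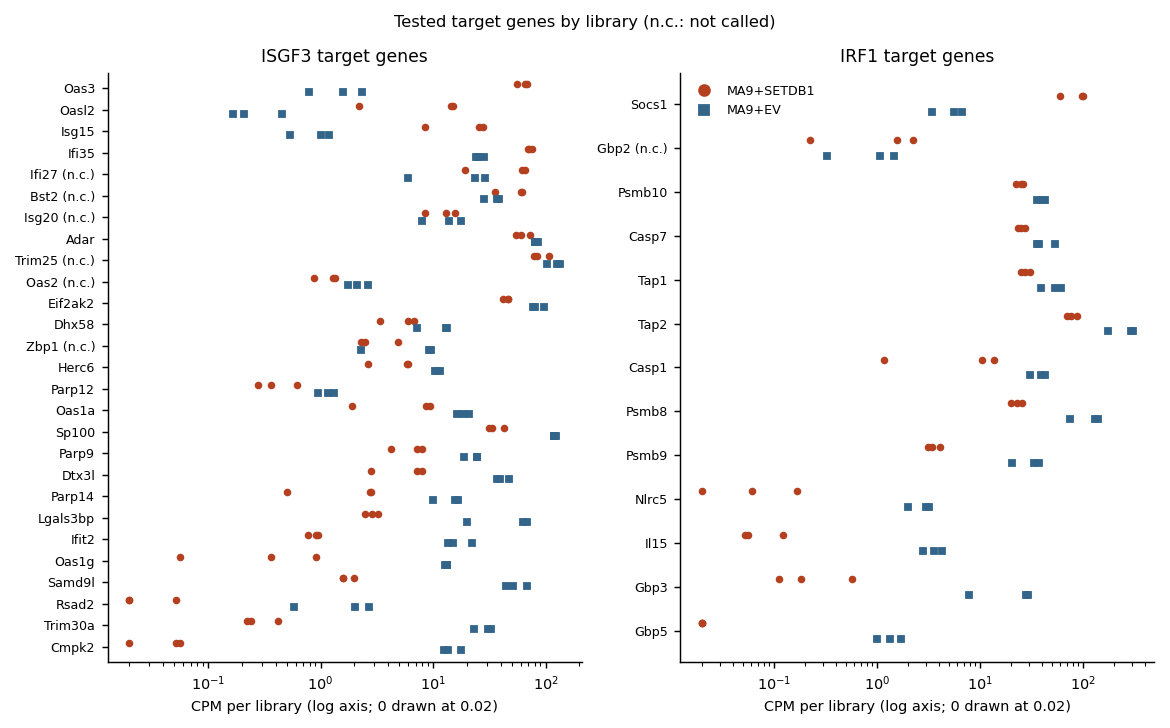
Level of each tested ISGF3 target (left) and IRF1 target (right) in every library (CPM, log axis, with 0 drawn at 0.02), from the largest fitted increase at the top to the largest decrease at the bottom. MA9+SETDB1 circles lie left of MA9+EV squares for most genes, and right of them for Oas3, Oasl2, Isg15, Ifi35 and Socs1.

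Genes known as IRF8 targets include some that IRF8 activates and some that it represses, so the list has no single direction of its own. Of 8 tested among 10 listed, 4 were higher and 2 lower, with a median log2 fold change of 0.15. Over all genes tested, 53.5% were called, 27.4% higher and 26.2% lower, and the difference of the list from these shares was not tested. Nf1, a RAS inhibitor that IRF8 activates, was at 13.7, 18.6 and 19.9 CPM in MA9+SETDB1 libraries 1 to 3, against 37.2, 67.1 and 67.6 CPM in MA9+EV libraries 1 to 3 (log2 fold change -1.72, edgeR adjusted p = 0.00188). Bcl2, a survival gene that IRF8 represses, was at 22.2, 66.8 and 61 CPM in MA9+SETDB1 libraries 1 to 3, against 7.89, 9.79 and 10.5 CPM in MA9+EV libraries 1 to 3 (log2 fold change 2.41, edgeR adjusted p = 0.00268). Replicate 1 was the lowest of both arms in both genes, yet the arms did not overlap. Ctsc, a cathepsin that activates granule proteases, averaged 456 ± 210 CPM in MA9+SETDB1 cells and 122.1 ± 40 CPM in MA9+EV cells (SD, n = 3 each, edgeR adjusted p = 0.00957). Klf4, a monocyte factor downstream of IRF8 and named after its value was seen, failed the filter with 1 count summed over MA9+SETDB1 libraries and 39 over MA9+EV libraries. Lower calls numbered 4 without MA9+SETDB1 library 1 and 1 without MA9+EV library 2, and 2 genes were called higher with libraries scaled by total counts.

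Of 8 genes listed as IRF4 targets only Il4 and Chil3 were tested. Il4, the type 2 cytokine, had 3722 counts summed over MA9+SETDB1 libraries and 0 over MA9+EV libraries, at least 1579-fold higher in MA9+SETDB1 cells when 3 counts are allowed over the MA9+EV arm. Chil3, a chitinase-like protein of alternatively activated macrophages, was at 0.168, 0.183 and 0.0519 CPM in MA9+SETDB1 libraries 1 to 3, against 886, 50 and 45.5 CPM in MA9+EV libraries 1 to 3 (edgeR adjusted p = 0.00294; 0.0652 with limma-voom). Library 1 of MA9+EV stood far above the other two, and Irf4 itself was barely detected in both arms. Without MA9+SETDB1 library 1, 2 genes of this list were called in each direction, and 2 were called lower without MA9+SETDB1 library 2 or MA9+EV library 3.

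Of the partners that IRF4 and IRF8 use on DNA, some were abundant in both arms and others were near 0. Batf3 had no count in any library, and Spib, Spic, Batf2 and Bcl6 also failed the filter. Of 10 tested among 15 listed, 4 were higher and 1 lower in MA9+SETDB1 cells (5 of 10 called, a share near that of all genes), with a median log2 fold change of 0.16. PU.1, the ETS partner (Spi1, named after its values were seen), averaged 209.5 ± 10.5 CPM in MA9+SETDB1 cells and 195.1 ± 24.3 CPM in MA9+EV cells (SD, n = 3 each), with a log2 fold change of 0.10, a 95% interval of -0.18 to 0.39 and an edgeR adjusted p of 0.501. It was not called. The AP-1 partners differed. Jun was at 14.03 ± 6.48 CPM in MA9+SETDB1 cells and 14.02 ± 6.75 CPM in MA9+EV cells (SD, n = 3 each), with overlapping arms, and was not called (95% interval of the log2 fold change -1.2 to 1.2, edgeR adjusted p = 0.997). Junb was at 122, 155 and 151 CPM in MA9+SETDB1 libraries 1 to 3, against 29.4, 31.8 and 35.2 CPM in MA9+EV libraries 1 to 3 (log2 fold change 2.15, edgeR adjusted p = 3.69e-05). Jund averaged 140.9 ± 46.2 CPM in MA9+SETDB1 cells and 26.4 ± 12 CPM in MA9+EV cells (SD, n = 3 each, edgeR adjusted p = 0.00229). Batf, which pairs with them, was at 8, 7.3 and 9.92 CPM in MA9+SETDB1 libraries 1 to 3, against 28.9, 22.8 and 22.2 CPM in MA9+EV libraries 1 to 3 (log2 fold change -1.55, edgeR adjusted p = 0.000694). The E protein gene Tcf3 was higher (log2 fold change 0.71, edgeR adjusted p = 0.00297). Ikzf3, which encodes the Ikaros relative Aiolos, was higher too, with 210, 23 and 28 counts in MA9+SETDB1 libraries 1 to 3, against 2, 1 and 0 counts in MA9+EV libraries 1 to 3 (edgeR adjusted p = 0.0053), most of them from MA9+SETDB1 library 1. Jun and Ikzf3 were named after their values were seen. Lower calls numbered 2 or 3 in 10 of 15 alternative fits, among them 3 without MA9+SETDB1 library 1 and 2 without MA9+SETDB1 library 2, without MA9+EV library 3, or under the replicate block.

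The 3 corepressor genes whose proteins bind IRF2 or resemble those that do went different ways. Irf2bpl was at 44.4, 58.9 and 54 CPM in MA9+SETDB1 libraries 1 to 3, against 10.1, 13 and 15.2 CPM in MA9+EV libraries 1 to 3 (log2 fold change 2.04, SE 0.192, edgeR adjusted p = 0.00021). Irf2bp2 was lower, averaging 159.2 ± 6.29 CPM in MA9+SETDB1 cells and 206.4 ± 21.3 CPM in MA9+EV cells (SD, n = 3 each, edgeR adjusted p = 0.0249). That call was lost without MA9+SETDB1 library 2 or 3 or MA9+EV library 3 (edgeR adjusted p between 0.0656 and 0.0972). Irf2bp1 was not called (log2 fold change 0.04, 95% interval -0.33 to 0.41).

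Over all these lists, 106 of 143 different genes were tested, and 23 were higher and 52 lower in MA9+SETDB1 cells. The share called was 70.8%, beside 53.5% of all genes tested. The median log2 fold change of the listed genes was -0.61. Markers of blood cell types moved with the arms, and their part in the results on the Irf genes was not tested. Of 8 monocyte and macrophage markers 7 were tested, 6 lower and 1 (Csf1r) higher, with a summed level of 374 to 430 CPM in MA9+SETDB1 libraries and 2440 to 4210 CPM in MA9+EV libraries. All 5 neutrophil markers were lower, at 24.8 to 28.6 CPM in sum in MA9+SETDB1 libraries and 11500 to 14600 CPM in MA9+EV libraries. All 7 mast cell and basophil markers (9070 to 9930 CPM in MA9+SETDB1, 26.2 to 34.6 CPM in MA9+EV), all 5 erythroid markers (961 to 1600 against 0.702 to 1.46 CPM) and all 4 eosinophil markers (103 to 150 against 4.48 to 6.9 CPM) were higher.

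For dendritic and lymphoid cells, in which several Irf genes are abundant, some defining markers were at 0 in both arms and others were detected. Batf3, Xcr1 and Cd209a of conventional dendritic cells had no count, and the 7 markers summed to 5.77 to 8.78 CPM in MA9+SETDB1 libraries and 0.249 to 0.504 CPM in MA9+EV libraries, with Itgax (264 against 13 counts summed over the arm) and Zbtb46 (96 against 0), the 2 tested, higher. Siglech, Ly6d and Klk1 of plasmacytoid dendritic cells were at 0, and Tcf4, the 1 of 5 markers tested, was lower. The 5 markers summed to 1.4 to 2.54 CPM in MA9+SETDB1 libraries and 36.8 to 49.2 CPM in MA9+EV libraries. Ccr9, which did not pass the filter, went the other way. It had 12, 4 and 4 counts in MA9+SETDB1 libraries 1 to 3 and 1, 0 and 0 counts in MA9+EV libraries 1 to 3. Pax5 and Ms4a1 of B cells were at 0, with a sum over 5 markers of 2.43 to 3.36 CPM in MA9+SETDB1 libraries and 0.913 to 4.01 CPM in MA9+EV libraries and no call. Cd3e and Klrb1c of T and NK cells were at 0, and of the 2 tested among 5, Nkg7 was higher and Lck lower, with a sum of 25.2 to 50.2 CPM in MA9+SETDB1 libraries and 24.2 to 30.7 CPM in MA9+EV libraries. The arms overlapped for Nkg7, and its call was lost with limma-voom (adjusted p = 0.0518) and under the replicate block (edgeR adjusted p = 0.0785). Lck lost its call without MA9+SETDB1 library 2 or any 1 MA9+EV library (edgeR adjusted p between 0.0565 and 0.102). Cd3g, a T cell receptor subunit gene that did not pass the filter, had 4, 49 and 45 counts in MA9+SETDB1 libraries 1 to 3 and 0 in each MA9+EV library, at least 41.6-fold higher in MA9+SETDB1 cells with 3 counts allowed over the MA9+EV arm.

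For the 3 called members with the largest change, the genes with the most similar profile were found by the root mean square difference of centred log2 CPM over the 6 libraries, among genes averaging at least 10 CPM. Those most like Irf8 were Eif4e3, Slc36a4 and Zfp516, at 0.338, 0.37 and 0.393 log2 units. Those most like Irf1 were Wee1, Gpat4 and Scly, at 0.0791, 0.0814 and 0.0987 log2 units, and those most like Irf9 were March2, Dop1b and Rnf130, at 0.0513, 0.0581 and 0.0645 log2 units. The 6 libraries form 2 arms, so a close profile requires a change of similar size and the same direction in these log2 CPM. They held a prior count of 2, which narrows the changes of genes near 0. The fitted log2 fold changes of the 3 genes most like Irf8 were -7.54, -6.78 and -6.22, against -8.93 for Irf8.

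Genes next to the members were read from the RefSeq annotation of GRCm38.p6. Irf9 lies between Rnf31, which encodes a subunit of the linear ubiquitin ligase, 311 bases away, and Rec8, a meiotic cohesin gene, 7972 bases away. Rnf31 was higher in MA9+SETDB1 cells (48.9 ± 5.25 against 23.1 ± 2.51 CPM, SD, n = 3 each, log2 fold change 1.08, edgeR adjusted p = 0.000729). Rec8 had 2139 counts summed over MA9+SETDB1 libraries and none over MA9+EV libraries, at least 907.6-fold higher in MA9+SETDB1 cells with 3 counts allowed over the MA9+EV arm. Irf9 and both of its neighbours were thus higher. At Irf8 the neighbours did not follow: Cox4i1, a respiratory chain subunit gene, was not called (286.9 ± 27.5 against 340.3 ± 53.4 CPM, SD, n = 3 each, edgeR adjusted p = 0.203), and Foxf1 had no count in any library. At Irf1, Il5 had no count in any library and Slc22a5 was not called (log2 fold change 0.12, edgeR adjusted p = 0.633). Next to Irf3, Scaf1 (98 bases away) was higher by a log2 fold change of 0.40 (edgeR adjusted p = 0.00663; 0.136 with libraries scaled by total counts), and Bcl2l12 (10 bases away) was not called.

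Promoter windows matched all 8 members, with 11 annotated starts among them. Both strands were searched for the gamma-activated site TTCNNNGAA, which STAT dimers bind, for the interferon-stimulated response element core (GAAA, then GAAA after 2 bases), for the ETS-IRF element (GGAA, then GAAA after 2 bases), and for a GATA site, written as AGATAA or AGATAG or TGATAA or TGATAG. The gamma-activated letters were found in 3 of the 11 windows, beside 8.30% of all 32851 windows. These were the first windows of 3 of 8 members, Irf8, Irf1 and Irf2. The letters lay from -171 to -163 and from -153 to -145 relative to the first start of Irf8, from -90 to -82 in Irf1 and from -224 to -216 in Irf2, as capitalised in the sequences above. These 3 members are also those called lower in MA9+SETDB1 cells. Of all 813 tested genes that hold the letters, 26.3% were called higher and 29.0% lower, beside 28.0% higher and 26.9% lower of all 9734 tested genes with a window. The difference between these shares was not tested.

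The response element core was found in Irf2 alone, from -241 to -232, beside 3.44% of all windows. The ETS-IRF letters were found in Irf2 alone too, from -247 to -238, overlapping that core, beside 2.72% of all windows. GATA letters were found in Irf7 and in both windows of Irf9, beside 29.8% of all windows. Of the tested genes that hold them, 31.4% were called higher and 25.8% lower for GATA letters, 29.1% and 27.5% for the response element core, and 24.4% and 28.8% for the ETS-IRF letters, and these shares were not tested either. Irf3, Irf4 and Irf5 held none of the 4 motifs in these windows. A match describes letters and not a bound site, and its absence says only that these letters are not in this window.

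**Figure D5:**
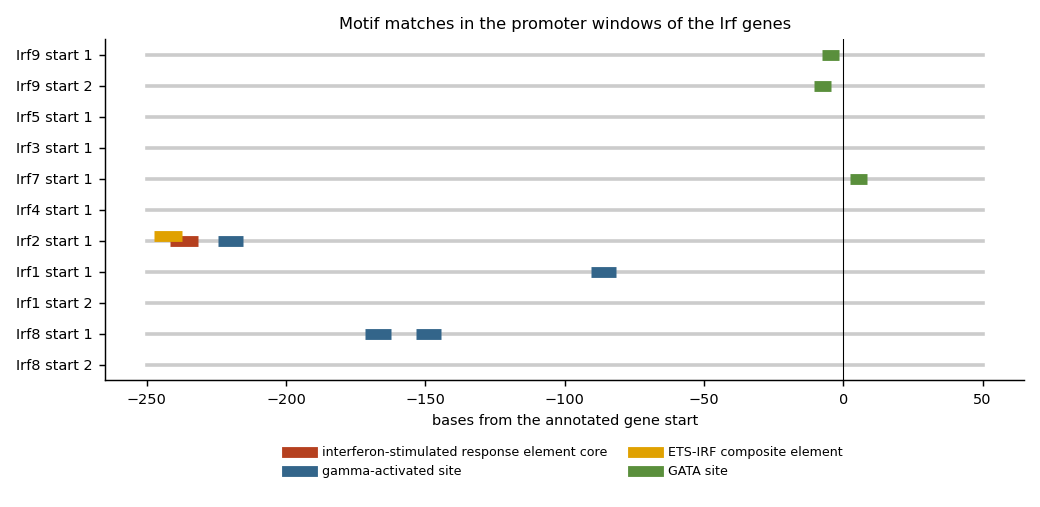
Motif matches in the 11 promoter windows of the 8 Irf genes, in bases from the annotated start, with coloured blocks for matches and grey lines for the windows. Blue gamma-activated letters appear in the first windows of Irf8, Irf1 and Irf2 only, and the ETS-IRF and response element letters overlap at the left end of Irf2.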

How the data were processed

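Gene counts of 6 of the 26 samples in the series were used, and the other 20 samples were not analysed here. The authors deposited raw read counts per gene, 1 file per library, with HTSeq-style summary lines at the end. Per the labels' protocols the libraries were strand-specific and poly(A)-selected. The submitters' processing notes list cutadapt 1.18, STAR 2.6.0c, HTSeq 0.11.0 and the build GRCm38, with no roles given. The 5 summary lines, 24.6 to 26.3% of each library's reads, were left out. Of the identifiers, 52480 were matched to symbols with their version, 1599 without it, and 67 were not matched.

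Genes were filtered with filterByExpr, scaled by TMM, and tested with the quasi-likelihood test of edgeR 4.0.16 (R 4.3.3) between the 2 arms, with no covariates and Benjamini-Hochberg adjustment over all 12986 tested genes. Called means an adjusted p under 0.05. CPM were computed with TMM-scaled library sizes. Ratios of sums with 1 to 3 counts have exact 95% binomial intervals, and a sum of 0 was replaced by 3 counts over the arm. Ratios within a library used a pseudocount of 0.5 and two-sided exact permutation tests. The edgeR fit without a replicate block, limma-voom and DESeq2 were checked on simulated data. Same-numbered libraries of the arms deviated together (correlations of 0.319, 0.271 and 0.257 over 9041 genes of at least 10 CPM). By the rule used (each over 0.1) the numbers could pair the libraries. The main fit and the permutation tests used no pairing, which entered only the alternative fit with a replicate block. Replicates 2 and 3 also correlated across numbers (0.301 and 0.251), so the data set replicate 1 apart but do not tell 2 from 3. Alternatives were DESeq2 1.42.0, limma-voom 3.58.1, other scalings and filters, the replicate block, summed replicates 2 and 3, and leaving out each library.

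The members, lists and tests were chosen with earlier results of these data known. Named from each list were up to 4 tested genes with the smallest p and called genes of short lists. Per-length levels and protein sequences were not used here, so levels are compared between arms and not between genes. Results on a few genes that these rules name are not reported here.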

Additional observations from a re-analysis of the deposited data

How the results depend on the processing

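Irf1, Irf8 and Irf9 were called, and Irf7 was not, in all 15 alternatives, and no tested member changed direction in any. Over the 7 tested members, 93 of 105 alternative results kept both direction and call. With replicates 2 and 3 of each arm summed, 2292 genes were called higher and 1928 lower, and 1 member, Irf9, was higher; Irf2 (log2 fold change -0.51, edgeR adjusted p = 0.113), Irf3 (0.39, 0.231) and Irf5 (1.23, 0.149) were not called, in a fit with fewer libraries. In that fit 1 kinase or adaptor, 1 receptor or JAK-STAT gene and 1 IRF8 target were called higher, and 0 IRF2-binding cofactors lower. With total counts and no scaling factor, chosen after seeing the data, the median of all genes moved to -0.24, the split became 2825 higher and 4585 lower in place of 3554 and 3397, and Irf3 was not called (0.25, edgeR adjusted p = 0.144). Leaving out 1 library at a time, members called higher ranged from 1 to 3, Irf3 from 0.40 to 0.62 and Irf5 from 1.08 to 1.65 in log2 fold change, and all genes called from 2992 to 4231 higher and from 2727 to 4063 lower. The difference between arms in the log2 ratio of Irf7 to Irf3 ranged from -0.58 to 0.07, reversed to 0.0653 without MA9+EV library 2; the cause was not tested. The replicate block gave 3791 higher and 3761 lower and changed no call of a member. It moved 1 count of a list by over 1.5 times, that of the lower partners of IRF4 and IRF8, and gave 10 kinases and adaptors lower in place of 7, and 6 ISGF3 targets higher and 16 lower in place of 4 and 17. Depth limits Irf4 and the interferon ligands. Levels per length and other promoter windows were not run.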
